A study of Mus musculus with 45 samples.

Results

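The genes described here are 10 components of Wnt signaling, namely the ligands Wnt4, Wnt5a, Wnt7b and Wnt9b, the receptors Fzd1 and Lgr4, β-catenin (Ctnnb1), and Axin2, Nkd1 and Lef1, which are widely used as readouts of β-catenin activity. They were chosen by name, and all 10 of the 10 were found among the 55401 genes of the count tables and among the 15828 protein-coding genes that passed the expression filter in both sexes. Translating ribosome affinity purification (TRAP) RNASeq measured them in the kidneys of 45 mice. In TRAP, an EGFP-tagged form of the ribosomal protein L10a, made here from R26Rpl10a only in cells in which Cre had acted, is pulled down with its ribosomes, and the bound mRNA is sequenced. Pax8rtTA and TetOCre restricted Cre to kidney tubules and made it depend on doxycycline, which every mouse received from postnatal day 28 to 42, before harvest at postnatal day 49 (7 weeks). Noncystic mice (Pkd1fl/+, 8 males and 7 females) kept a working Pkd1 allele. Pkd1KO mice (Pkd1fl/fl, 7 males and 8 females) lost Pkd1, which encodes polycystin-1, in the cells where Cre acted and go on to form cysts. Pkd1KO+ciliaKO mice (Pkd1fl/fl; Kif3afl/fl, 9 males and 6 females) also lost Kif3a, a kinesin subunit required to build primary cilia, and are protected from cysts. All 45 mice were hemizygous for R26Rpl10a, Pax8rtTA and TetOCre, so the noncystic mice also carried a floxed Pkd1 allele and received doxycycline. The kidneys were taken before cysts had formed.

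Wnt proteins are secreted lipid-modified ligands that bind Frizzled receptors together with Lrp5 or Lrp6. In the canonical branch, binding keeps the destruction complex of Axin, Apc and Gsk3 from marking β-catenin for degradation, and β-catenin then enters the nucleus and activates genes with TCF and LEF factors. Lgr4 binds R-spondins and protects Frizzled receptors from the ligases Rnf43 and Znrf3, while other ligands, Wnt5a among them, mostly act through branches that do not use β-catenin, such as planar cell polarity. In the developing kidney, Wnt9b from the ureteric bud starts nephron formation, Wnt4 carries it forward in the responding mesenchyme, and Wnt7b from the collecting duct is needed for the medulla.

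The sequence just upstream of the start is shown for 3 members that passed a test between genotypes, together with the only stretch near a member's start that matched a TCF/LEF motif. RefSeq promoters on GRCm38.p6, each 300 bases long with 250 before the start and 50 after it, were matched by symbol for 8 of the 10 members and gave 12 promoters. In the first 3 sequences capitals mark GC boxes (GGGCGG on either strand), and in the fourth they mark the TCF/LEF match. The Wnt9b sequence is chr11:103749822-103750071 on the minus strand, the Wnt4 sequence is chr4:137277385-137277488 on the plus strand, the Lgr4 sequence is chr2:109917397-109917646 on the plus strand, and the Lef1 sequence is chr3:131156136-131156164 on the plus strand. None of the 4 overlaps an annotated exon, and the Wnt4 sequence stops where the annotated gene begins.
Wnt9b: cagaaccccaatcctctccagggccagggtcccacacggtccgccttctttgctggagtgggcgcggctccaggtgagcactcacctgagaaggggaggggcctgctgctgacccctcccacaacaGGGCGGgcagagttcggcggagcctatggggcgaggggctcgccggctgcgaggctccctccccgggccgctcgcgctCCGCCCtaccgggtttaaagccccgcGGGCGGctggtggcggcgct
Wnt4: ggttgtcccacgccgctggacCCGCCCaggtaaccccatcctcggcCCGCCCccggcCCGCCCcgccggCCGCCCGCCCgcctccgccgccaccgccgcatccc
Lgr4: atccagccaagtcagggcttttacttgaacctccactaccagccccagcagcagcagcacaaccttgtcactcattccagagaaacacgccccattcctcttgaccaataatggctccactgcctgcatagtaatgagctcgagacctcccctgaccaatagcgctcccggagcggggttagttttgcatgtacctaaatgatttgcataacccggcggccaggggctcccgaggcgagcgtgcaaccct
Lef1: caacctcagaaTACAAAGtaggattgcat

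The Wnt4 and Wnt9b promoters were rich in G and C, at 84.3% and 71.7% of their 300 bases, and the Lgr4 promoter held 58.3%. GC boxes occurred in 8 of the 12 member promoters, which belong to 5 members, and in 35.7% of all 32851 mouse promoters of this length. The TCF/LEF motif was searched on both strands as the letters CTTTG followed by a pair of bases that are each either A or T. It was matched in 1 of the 12 member promoters, a Lef1 promoter that lies inside the annotated gene, where it reads TACAAAG and begins 147 bases before the start. The same search matched 16.9% of all promoters. These are matches of letters in a window of 300 bases and not measured binding sites.

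Between 80874556 and 132958186 fragments were counted per mouse (median 103070359). Levels are given as CPM (fragments of a gene, scaled to a common library size) after TMM normalization, and the precision that they allow covers counting error only. Kif3a, the second targeted gene, averaged 21.8 ± 3.68 CPM (SD, n = 8) in noncystic males, 24.2 ± 2.49 (n = 7) in Pkd1KO males and 5.72 ± 0.804 (n = 9) in Pkd1KO+ciliaKO males. Kif3a went against the label in a pair of females. The library labelled noncystic female 5 held 6.69 CPM against 23.2 to 25.3 in the other noncystic females, and the library labelled Pkd1KO+ciliaKO female 6 held 20.7 CPM against 6.56 to 8.47 in the others of its group. In addition, 4 males (noncystic 3, Pkd1KO 4, and Pkd1KO+ciliaKO 6 and 8) lay between the other 20 males and the females, or among the females, on the first principal component. Results are given with and without these 6 libraries wherever leaving them out altered a call. Whole-gene counts of Pkd1 include exons outside the floxed part, so they do not test the deletion.

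The members covered a wide range of levels. TPM, which accounts for gene length, allows genes to be compared with each other. Ctnnb1 was the most abundant at a median of 214 TPM over the 45 mice, higher than 95.7% of the genes, followed by Lgr4 at 121, Fzd1 at 58.9 and Wnt7b at 21.2 TPM. Wnt5a (median 8.56 TPM), Wnt9b (6.31), Nkd1 (4.95), Axin2 (4.26) and Wnt4 (2.77) formed a middle group, and Lef1 was the lowest at 0.0821 TPM, above only 4.35% of the genes. Each of the first 4 was higher than the next member in the order in 45 of 45 mice, and so was Wnt4 over Lef1. The middle positions were less firm. Wnt5a exceeded Wnt9b in 40 mice, Wnt9b exceeded Nkd1 in 30, Nkd1 exceeded Axin2 in 30, and Axin2 exceeded Wnt4 in 39. Lef1 rested on 8 to 120 fragments per mouse and Wnt4 on 163 to 575, whereas Ctnnb1 rested on 26474 to 49700.

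**Figure D1:**
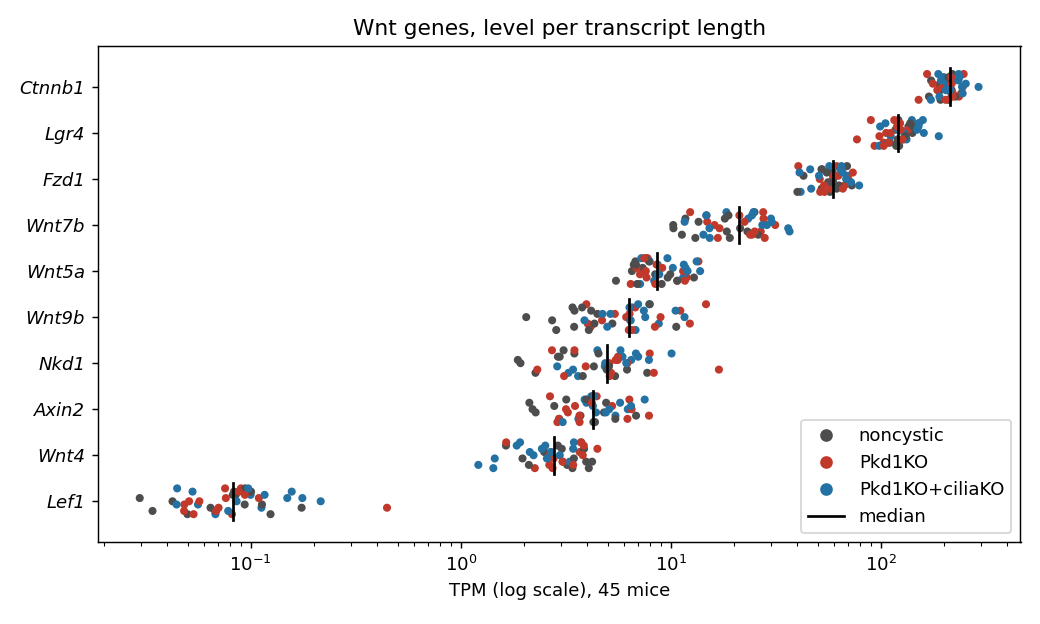
Level of each of the 10 members in length-corrected TPM (logarithmic axis) in the 45 mice, 1 point per mouse, with the line at the median. Ctnnb1 lies at the top with a median of 214 TPM and Lef1 at the bottom with 0.0821 TPM, and the points of neighbouring genes from Wnt5a to Wnt4 overlap.

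Few members passed the threshold when each pair of genotypes was fitted within a sex, as in the study's own design. A gene passed when its p from edgeR's quasi-likelihood test, adjusted over all protein-coding genes by Benjamini-Hochberg, did not exceed 0.05. In males, 0 of 10 members passed in Pkd1KO against noncystic, where 6.3% of all genes did, 0 of 10 passed in Pkd1KO against Pkd1KO+ciliaKO (3.77% of all genes), and 1 of 10, Wnt9b, passed in Pkd1KO+ciliaKO against noncystic (8.89%). In females, 0 of 10 passed in Pkd1KO against noncystic (3.34%), 1 of 10, Lgr4, passed in Pkd1KO against Pkd1KO+ciliaKO (11.7%), and 0 of 10 passed in Pkd1KO+ciliaKO against noncystic (2.54%). The share of members called was near that of all genes in both cases. DESeq2, which the study used, gave 2, 1 and 3 members in the male comparisons, where it called 1640, 1234 and 2157 of 15991 genes. In the female comparisons it gave 0, 2 and 0 members and called 962, 2504 and 1279 of 15968 genes. At an unadjusted p under 0.05 the members numbered 4, 1 and 4 in the 3 male comparisons and 3, 2 and 4 in the female ones, where 22.1%, 19.7%, 24.3%, 16.4%, 27.7% and 21.4% of all genes reached that level. No member's values separated without overlap in any of these 6 comparisons, in which 2.11%, 1.11%, 1.06%, 1.06%, 2.99% and 1.73% of all genes did. The median log2 difference of the 10 members ranged from -0.07 to 0.22 over the 6 comparisons, and that of all genes from -0.01 to 0.01.

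The effect of genotype averaged over the sexes was also fitted in 1 model of all 45 mice, an analysis added after the within-sex values had been seen. In this model 3 of 10 members passed in Pkd1KO against noncystic (15.9% of all genes), 2 of 10 in Pkd1KO against Pkd1KO+ciliaKO (22.4%) and 3 of 10 in Pkd1KO+ciliaKO against noncystic (19.3%). The members concerned were Wnt9b and Wnt7b, which were higher in both mutant genotypes than in noncystic mice, Wnt4, which was lower in Pkd1KO+ciliaKO mice than in both other genotypes, and Lgr4, which was lower in Pkd1KO mice than in both other genotypes. These calls held in each of the 4 alternatives run for them, which were DESeq2, limma with sample weights, a replicate block and the fit without the 6 doubted libraries. The comparisons of both mutants with the noncystic mice share those mice, so they are given side by side and not as independent evidence. A kidney pulldown cannot tell fewer cells of a type from less of an mRNA per cell.

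**Figure D2:**
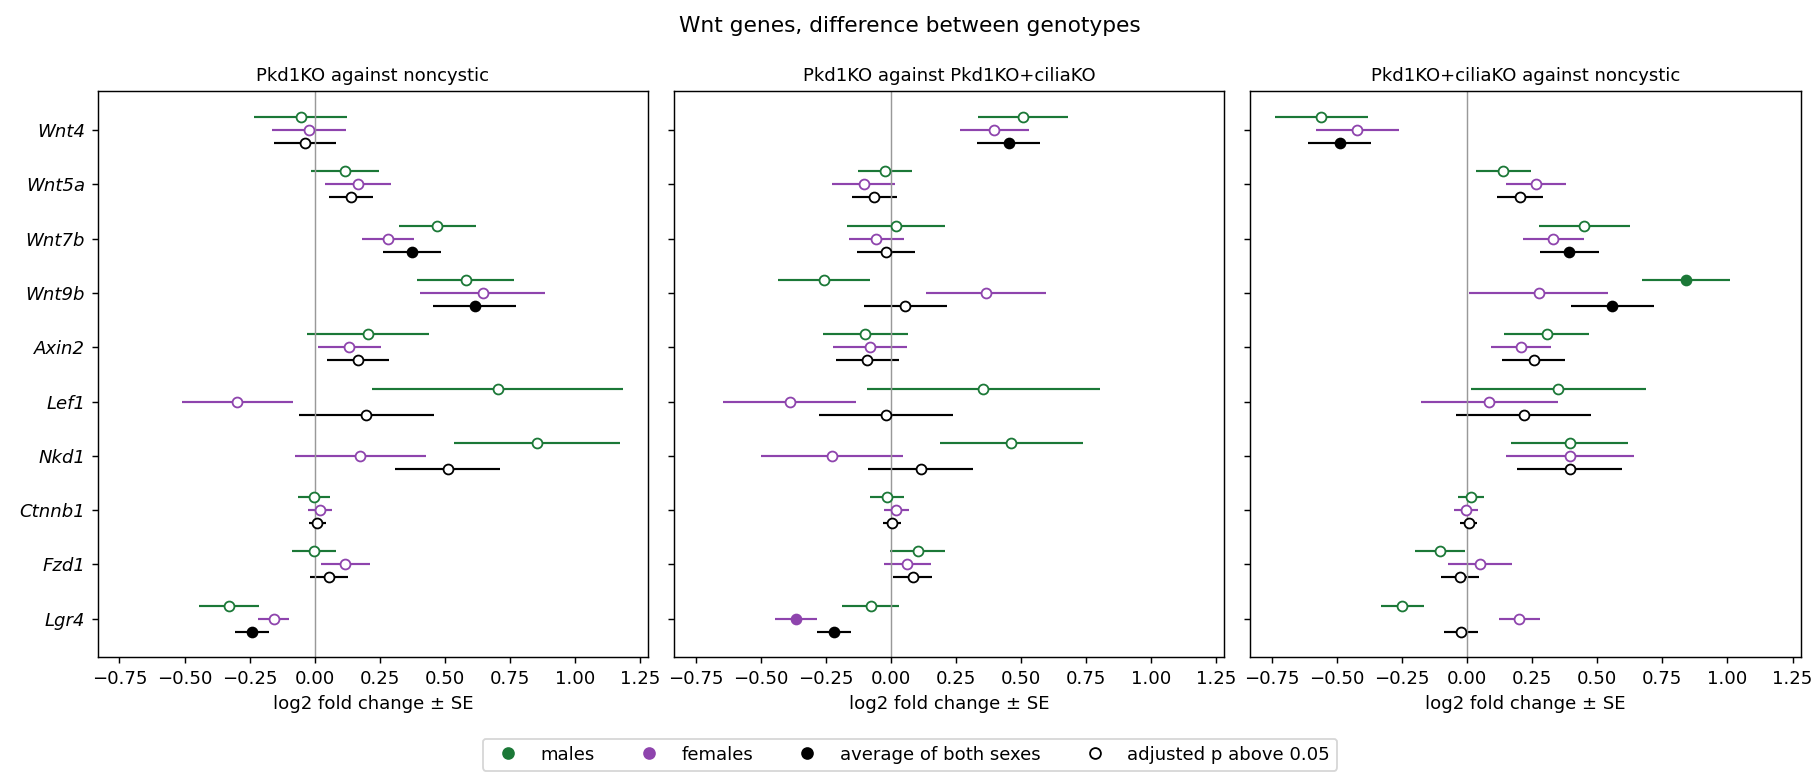
Log2 difference between genotypes (± SE) of each member in males (green), females (purple) and the average of both sexes (black), in 3 panels for the 3 pairs of genotypes. Filled symbols mark an adjusted p of at most 0.05: Wnt9b in males and Lgr4 in females pass within a sex, and Wnt9b, Wnt7b, Wnt4 and Lgr4 pass in the average.

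Wnt9b, on chromosome 11, differed from the noncystic mice in Pkd1KO+ciliaKO males and in the average of both sexes. In males it ranged from 3.20 to 6.99 CPM (median 5.37) in noncystic mice, from 5.34 to 11.9 (median 7.31) in Pkd1KO mice and from 5.56 to 11.8 (median 9.68) in Pkd1KO+ciliaKO mice. The Pkd1KO+ciliaKO males were mostly above the noncystic males, with all 9 over the noncystic median and an overlap limited to the ends of the ranges. The log2 difference was 0.84 ± 0.17 (SE), a 1.79-fold higher level, with an adjusted p of 0.00415, and it passed in 9 of 9 alternatives and 17 of 17 fits that left out 1 mouse. In Pkd1KO against noncystic males the difference was 0.58 ± 0.19 (adjusted p = 0.0751). It passed without noncystic male 3 (0.65, adjusted p = 0.0494), without Pkd1KO male 4 (0.66, adjusted p = 0.043) and without all 4 males that stood apart (0.72, adjusted p = 0.0288).

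The females showed a higher Wnt9b in Pkd1KO mice, at 8.81 to 19.96 CPM (median 11.2) against 5.31 to 14.4 (median 6.10) in noncystic mice. All 8 Pkd1KO females were above the noncystic median, and the highest noncystic values overlapped theirs. The difference was 0.64 ± 0.24 (adjusted p = 0.17), and without the library labelled noncystic female 5 it was 0.84 (adjusted p = 0.0465). Pkd1KO+ciliaKO females, at 5.59 to 14.9 CPM (median 8.94), overlapped both other groups and differed from the noncystic females by 0.27 ± 0.27 (adjusted p = 0.586). Averaged over the sexes, Wnt9b was 1.53-fold higher in Pkd1KO (0.61 ± 0.16, adjusted p = 0.00506, 14 of 15 mice above the noncystic median of their sex) and 1.47-fold higher in Pkd1KO+ciliaKO (0.56 ± 0.16, adjusted p = 0.0127, 14 of 15). Between both mutants the averaged difference was 0.06 ± 0.16 (adjusted p = 0.837).

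Wnt7b, on chromosome 15, gave a similar picture at a higher level. The male values ran from 16.8 to 32.4 CPM (median 20.9) in noncystic, 22.3 to 38.6 (median 28.7) in Pkd1KO and 17.7 to 50.7 (median 27.9) in Pkd1KO+ciliaKO mice. The female values ran from 26.2 to 39.4 (median 29.3), 30.3 to 44.7 (median 39.4) and 33.6 to 53.7 (median 38.4) CPM in the same order. Mutant groups overlapped with the noncystic groups in both sexes, but 15 of 15 Pkd1KO mice and 14 of 15 Pkd1KO+ciliaKO mice lay above the noncystic median of their sex. Within a sex the differences did not pass, with 0.47 ± 0.15 in Pkd1KO males (adjusted p = 0.0714), 0.28 ± 0.10 in Pkd1KO females (adjusted p = 0.147), 0.45 ± 0.17 in Pkd1KO+ciliaKO males (adjusted p = 0.115) and 0.33 ± 0.12 in Pkd1KO+ciliaKO females (adjusted p = 0.124), each against noncystic. Leaving out noncystic male 3 brought both male differences past the threshold (0.57, adjusted p = 0.0144, and 0.55, adjusted p = 0.0379). The Pkd1KO difference also passed without Pkd1KO male 1 (0.53, adjusted p = 0.0407) and without all 4 males that stood apart (0.51, adjusted p = 0.0267). The average was 1.30-fold higher in Pkd1KO (0.38 ± 0.11, adjusted p = 0.0156) and 1.31-fold higher in Pkd1KO+ciliaKO (0.39 ± 0.11, adjusted p = 0.0124), and the mutants differed by -0.02 ± 0.11 (adjusted p = 0.932). Median summed markers of collecting duct principal cells were also higher in both mutants, with overlapping ranges. The summed level of 7 of them (Aqp2, Aqp3, Aqp4, Avpr2, Scnn1b, Scnn1g and Hsd11b2, all detected in every group) was 392.3 to 668 CPM (median 457) in noncystic, 319 to 755 (median 542) in Pkd1KO and 339 to 857 (median 534) in Pkd1KO+ciliaKO males, and 524 to 819 (median 636), 598 to 1263 (median 787) and 575 to 1301 (median 810) CPM in the females. After subtraction of group means, log2 CPM of Wnt7b correlated with this sum at 0.46 over the 45 mice, the highest of its correlations with 12 marker lists. The next was 0.41 with 4 thick ascending limb markers, whose medians were lower in Pkd1KO than in noncystic mice. Those medians were 3028, 1899 and 3168 CPM in noncystic, Pkd1KO and Pkd1KO+ciliaKO males, and 3258, 3091 and 4083 CPM in the females. The part of either cell type in the Wnt7b values was not tested. Exons of Wnt7b overlap AU022754, an antisense gene, and the strand setting of the counting is not given in the sources used here, so reads of the pair cannot be told apart.

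Wnt4, on chromosome 4, was lowest in the mice labelled Pkd1KO+ciliaKO. Pkd1KO+ciliaKO males held 1.67 to 3.89 CPM (median 2.67), compared with 2.30 to 5.05 (median 4.22) in noncystic and 2.54 to 5.24 (median 3.78) in Pkd1KO males. Pkd1KO+ciliaKO females held 2.65 to 4.16 CPM (median 3.12), compared with 2.66 to 5.36 (median 4.79) in noncystic females and 3.46 to 5.76 (median 4.33) in Pkd1KO females. All 15 Pkd1KO+ciliaKO mice lay below the noncystic median of their sex, though the ranges overlapped. Averaged over the sexes Wnt4 was 0.712 times the noncystic level (-0.49 ± 0.12, adjusted p = 0.00405), and Pkd1KO exceeded Pkd1KO+ciliaKO 1.37-fold (0.45 ± 0.12, adjusted p = 0.00557, 14 of 15 Pkd1KO mice above the Pkd1KO+ciliaKO median of their sex). Pkd1KO and noncystic mice differed by -0.04 ± 0.12 (adjusted p = 0.875).

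Within a sex the Wnt4 differences fell short of the threshold. Pkd1KO+ciliaKO against noncystic gave -0.56 ± 0.18 in males (adjusted p = 0.0552) and -0.42 ± 0.16 in females (adjusted p = 0.15). Several single mice decided these outcomes: the male difference passed without noncystic male 4 (-0.63, adjusted p = 0.0407), noncystic male 8 (-0.64, adjusted p = 0.0232) or Pkd1KO+ciliaKO male 6 (-0.64, adjusted p = 0.0325), or without all 4 males that stood apart (-0.65, adjusted p = 0.0274), and the female difference passed without the library labelled noncystic female 5 (-0.51, adjusted p = 0.0413) or without both doubted females (-0.59, adjusted p = 0.0214). Pkd1KO against Pkd1KO+ciliaKO gave 0.51 ± 0.17 in males (adjusted p = 0.112) and 0.40 ± 0.13 in females (adjusted p = 0.0634), and the latter passed without the library labelled Pkd1KO+ciliaKO female 6 (0.47, adjusted p = 0.0375).

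Wnt5a, on chromosome 14 and the ligand most associated with β-catenin-independent signaling, varied little with genotype. Its medians were 19.2, 21.0 and 21.6 CPM in noncystic, Pkd1KO and Pkd1KO+ciliaKO males, with all values between 15.5 and 28.8, and 19.2, 21.7 and 24.4 CPM in the females, with all values between 15.8 and 30.9. The groups overlapped over most of their range. The averaged difference was 0.14 ± 0.09 for Pkd1KO against noncystic (adjusted p = 0.299) and 0.20 ± 0.09 for Pkd1KO+ciliaKO against noncystic (adjusted p = 0.0934), and the latter became 0.25 (adjusted p = 0.0242) without the 6 doubted libraries. Exons of Wnt5a overlap those of the antisense gene Gm2670.

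**Figure D3:**
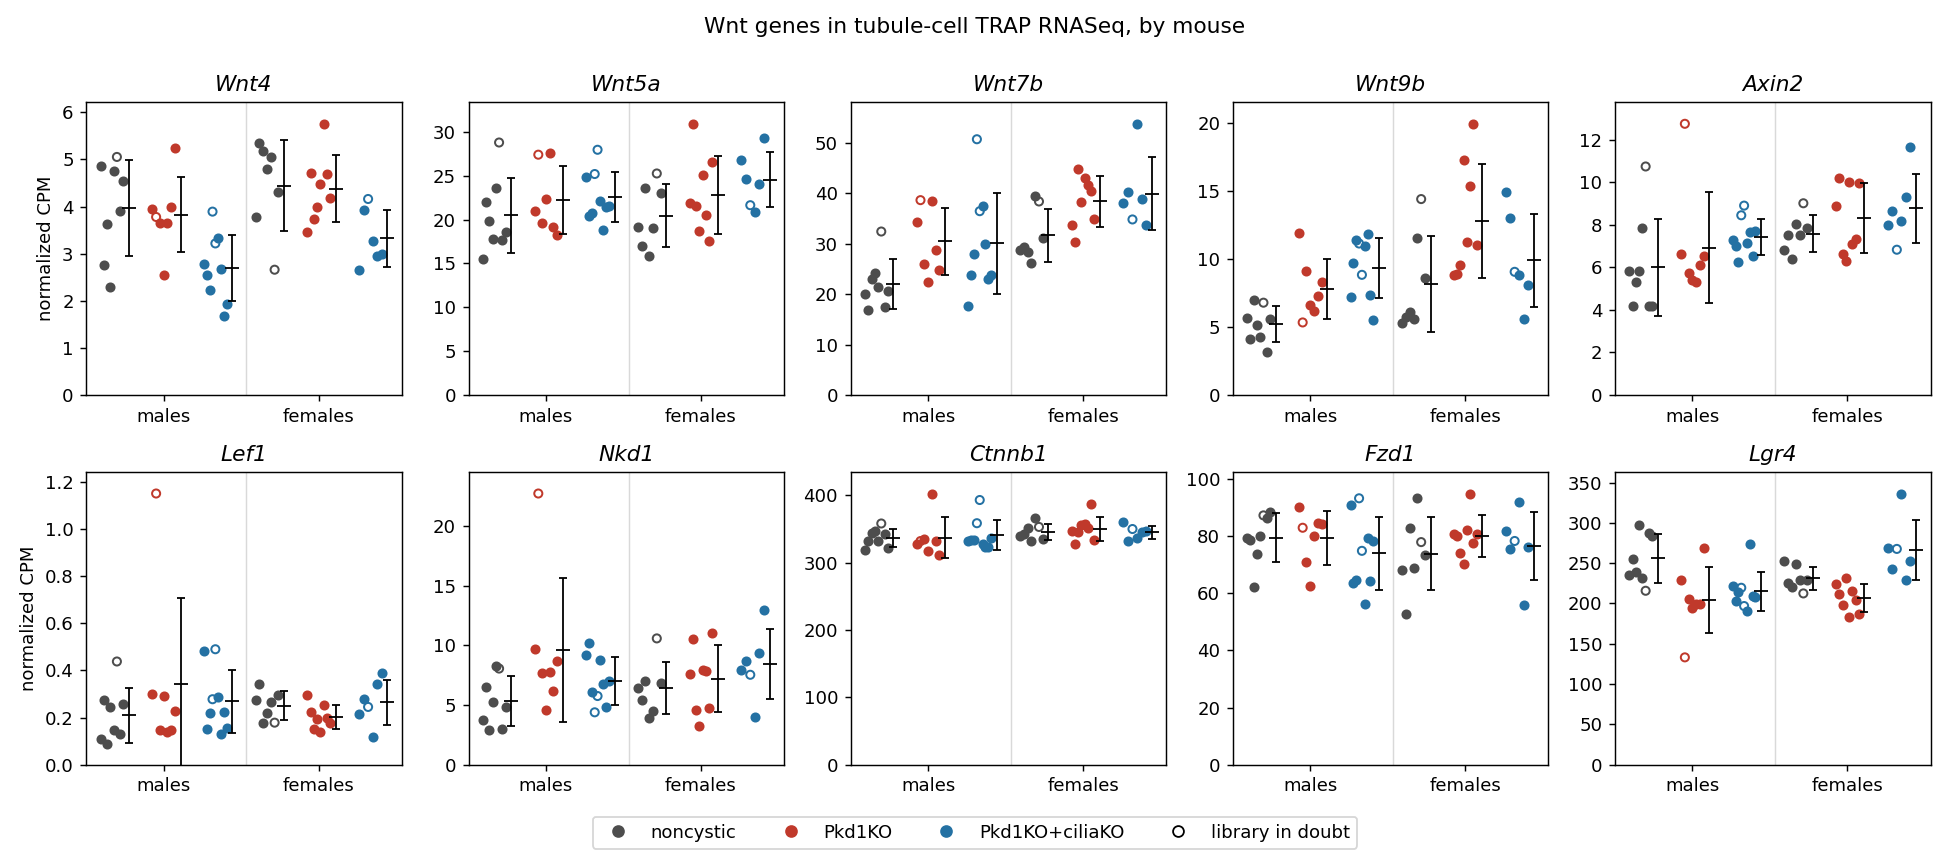
Level of each member in normalized counts (CPM, each panel from 0) in every mouse of the 6 groups, with bars for the mean ± SD and open circles for the 6 doubted libraries. In the average of both sexes Wnt9b is higher in both mutant genotypes, Wnt4 is lower in Pkd1KO+ciliaKO and Lgr4 is lower in Pkd1KO. Within a sex only Wnt9b in Pkd1KO+ciliaKO against noncystic males and Lgr4 between the female mutants passed. Separately, 1 Pkd1KO male stands far above its group for Nkd1 (22.7 CPM), Axin2 (12.7 CPM) and Lef1 (1.15 CPM).

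Among the receptors, Lgr4, on chromosome 2, was lower in Pkd1KO mice. In females it ranged from 183 to 232 CPM (median 208) in Pkd1KO, from 212 to 252 (median 229) in noncystic and from 229 to 336 (median 260) in Pkd1KO+ciliaKO mice. Pkd1KO and Pkd1KO+ciliaKO females touched only at the edge of their ranges, and 8 of 8 Pkd1KO females were below the Pkd1KO+ciliaKO median. The difference was -0.36 ± 0.08, a level 0.778 times that of Pkd1KO+ciliaKO, with an adjusted p of 0.00963. It passed in 14 of 14 fits that left out 1 mouse and in 8 of 9 alternatives, the exception being the replicate block (adjusted p = 0.0844). Pkd1KO against noncystic females gave -0.16 ± 0.06 (adjusted p = 0.17).

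In males Lgr4 ranged from 216 to 297 CPM (median 247) in noncystic, from 133 to 269 (median 199) in Pkd1KO and from 191 to 274 (median 209) in Pkd1KO+ciliaKO mice. Both mutant groups sat lower than the noncystic males but overlapped with them and with each other. The difference from noncystic was -0.33 ± 0.12 in Pkd1KO (adjusted p = 0.104) and -0.25 ± 0.08 in Pkd1KO+ciliaKO (adjusted p = 0.0652), and Pkd1KO against Pkd1KO+ciliaKO gave -0.08 ± 0.11 (adjusted p = 0.73). The Pkd1KO difference passed without Pkd1KO male 7 (-0.40, adjusted p = 0.0465), and the Pkd1KO+ciliaKO difference passed without noncystic male 3 (-0.28, adjusted p = 0.0256) or Pkd1KO+ciliaKO male 3 (-0.30, adjusted p = 0.0158), or without all 4 males that stood apart (-0.27, adjusted p = 0.038). Averaged over the sexes, Lgr4 in Pkd1KO was 0.845 times the noncystic level (-0.24 ± 0.07, adjusted p = 0.00762) and 0.859 times the Pkd1KO+ciliaKO level (-0.22 ± 0.07, adjusted p = 0.0141), with 13 of 15 Pkd1KO mice below the median of each. After subtraction of group means, log2 CPM of Lgr4 correlated with summed macrophage markers at -0.54. With podocyte, T cell and proximal tubule markers it gave -0.52, -0.49 and 0.44. The 5 macrophage markers (Adgre1, Csf1r, C1qa, C1qb and C1qc) summed to medians of 87.3, 110 and 70.1 CPM in noncystic, Pkd1KO and Pkd1KO+ciliaKO males. The female medians were 67.0, 84.0 and 56.3 CPM. The 6 proximal tubule markers gave medians of 9655, 7337 and 6661 CPM in males and 7819, 8063 and 7183 CPM in females. In females that order was unlike the order of Lgr4. Pkd1KO male 4, with the lowest Lgr4 (133 CPM), held 284 CPM of macrophage markers against 94.0 to 126 in the other Pkd1KO males. This library and the other doubted ones are part of the correlations. The part of these cell types in the Lgr4 values was not tested.

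Fzd1, an intronless Frizzled receptor gene on chromosome 5, showed no call in any comparison. Its group medians lay between 73.5 and 82.8 CPM and its values between 52.8 and 94.8, with broad overlap of all 6 groups. The differences between genotypes ran from -0.11 ± 0.10 to 0.12 ± 0.09 within a sex.

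Ctnnb1, on chromosome 9 and encoding β-catenin, was the steadiest member. Its group medians spanned 332 to 349 CPM, and the differences between genotypes ran from -0.01 ± 0.06 to 0.02 ± 0.05 within a sex. The lowest value in any mouse was 312 CPM and the highest 402. These are ribosome-bound mRNA levels and carry no information on the stability of the protein, which is the step that Wnt signaling controls. Exons of Ctnnb1 overlap exons of Ulk4 on the other strand.

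None of the 3 target genes passed within a sex. Nkd1, on chromosome 8, encodes a Dishevelled-binding inhibitor. It ranged from 2.95 to 8.24 CPM (median 5.05) in noncystic, 4.57 to 22.7 (median 7.79) in Pkd1KO and 4.39 to 10.2 (median 6.76) in Pkd1KO+ciliaKO males, and from 3.91 to 10.6 (median 6.42), 3.28 to 11.03 (median 7.74) and 3.97 to 12.96 (median 8.33) CPM in the females. Its spread within groups was wide enough for all groups to overlap. The averaged difference from noncystic was 0.51 ± 0.20 in Pkd1KO (adjusted p = 0.0769) and 0.39 ± 0.20 in Pkd1KO+ciliaKO (adjusted p = 0.161), and the latter became 0.60 (adjusted p = 0.0172) without the 6 doubted libraries.

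Axin2, on chromosome 11, encodes a scaffold of the destruction complex that acts in negative feedback. Its male medians were 5.58 CPM in noncystic, 6.13 in Pkd1KO and 7.29 in Pkd1KO+ciliaKO mice, and its female medians were 7.54, 8.10 and 8.41 CPM. The ranges overlapped, with noncystic males at 4.17 to 10.7 CPM and Pkd1KO+ciliaKO males at 6.25 to 8.90. The averaged difference in Pkd1KO+ciliaKO against noncystic was 0.26 ± 0.12 (adjusted p = 0.126) and became 0.36 (adjusted p = 0.0041) without the 6 doubted libraries. In males alone it was 0.31 ± 0.16 (adjusted p = 0.268) and passed without noncystic male 3 (0.47, adjusted p = 0.02). Pkd1KO against noncystic gave an average of 0.17 ± 0.12 (adjusted p = 0.388).

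Lef1, on chromosome 3, encodes a partner of β-catenin in transcription and is itself a target. Its group medians lay between 0.195 and 0.266 CPM, and every mouse except Pkd1KO male 4 held at most 0.490 CPM. The averaged differences were 0.20 ± 0.26 and 0.22 ± 0.26 for Pkd1KO and Pkd1KO+ciliaKO against noncystic (adjusted p = 0.679 and 0.583) and did not exceed their SE. Exons of Axin2 and Lef1 overlap exons of the antisense genes Gm11670 and Gm43352.

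Nkd1, Axin2 and Wnt5a varied together with markers of stromal cells, which lie outside the tubule, and with those of other nontubular cells. A list of 7 stromal markers (Col1a1, Col1a2, Col3a1, Pdgfra, Pdgfrb, Dcn and Lum) was detected in every group, 7 of 7 in each, with a summed level of 265 to 864 CPM in noncystic, 325 to 1097 in Pkd1KO and 425 to 794 in Pkd1KO+ciliaKO males, and of 234 to 572, 202 to 1126 and 275 to 937 CPM in the females. After subtraction of group means, the correlation of log2 CPM with the summed stromal markers over the 45 mice was 0.86 for Nkd1, 0.74 for Wnt5a and 0.64 for Axin2, while it was -0.14 for Wnt9b, 0.04 for Wnt7b, 0.22 for Wnt4 and -0.45 for Lgr4. With podocyte markers the correlation was 0.66 for Nkd1, 0.66 for Wnt5a and 0.62 for Axin2, with T cell markers it was 0.65, 0.41 and 0.55, and with endothelial markers 0.52, 0.53 and 0.56. For Lef1 it was 0.75 with endothelial and 0.47 with stromal markers. Values of 1 mouse share a library and its composition, so these correlations are descriptions. They include the 6 doubted libraries and are not given without them. Between members, leaving those libraries out took the correlation of Wnt5a with Axin2 from 0.557 to 0.295 and that of Wnt5a with Nkd1 from 0.606 to 0.621. Pkd1KO male 4 held the highest Nkd1, Axin2 and Lef1 and the lowest Lgr4 of its group. It also had 1097 CPM of stromal markers against 325 to 585 in the other Pkd1KO males, 376 CPM of endothelial markers against 82.7 to 156, and 4198 CPM of 6 proximal tubule markers against 6449 to 9733. Noncystic male 3 held the highest Axin2 (10.7 CPM) and Lef1 (0.438 CPM) of its group. It had 864 CPM of stromal markers against 265 to 701 in the other noncystic males, and 236 CPM of endothelial markers against 69.2 to 201. The part of such cells in the values of the target genes was not tested.

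**Figure D4:**
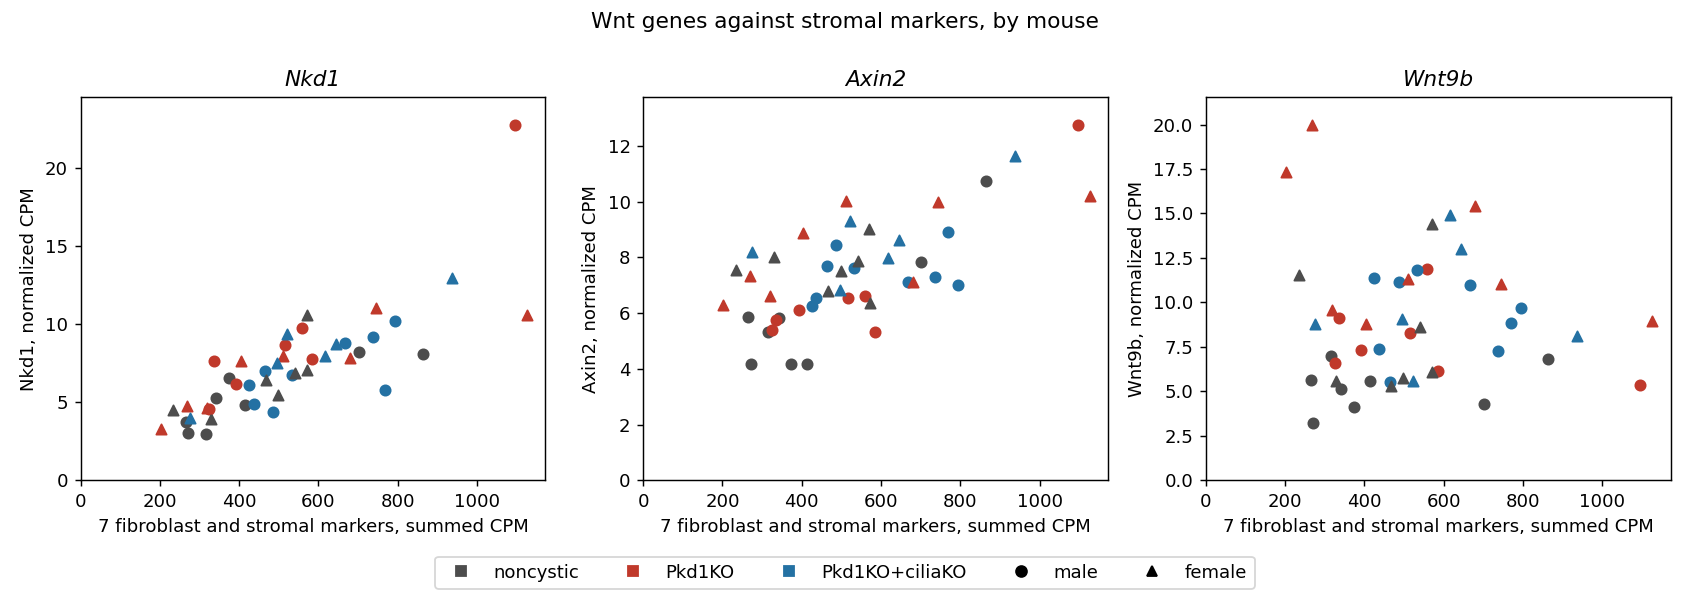
Nkd1, Axin2 and Wnt9b in normalized counts (CPM) against the summed CPM of 7 stromal markers, 1 point per mouse, by genotype and sex. Nkd1 and Axin2 rise along the axis (correlation 0.86 and 0.64 after subtraction of group means) and Wnt9b does not (-0.14). The doubted libraries are included.

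The study defines a cilia-dependent cyst activation (CDCA) pattern as a gene that passes in the same direction in Pkd1KO against noncystic and in Pkd1KO against Pkd1KO+ciliaKO. No member had it in males (0 of 10, against 1.09% of all genes) or in females (0 of 10, against 1.91%), with edgeR or DESeq2. When the same conditions were put to the average of both sexes, Lgr4 alone met them (1 of 10, against 7.22% of all genes). The study evaluated the pattern within each sex, so the average is a different criterion, and it was added later. Between the mutants, Lgr4 passed in females and not in males. In the averaged model Wnt9b and Wnt7b passed only the first condition of the pattern and Wnt4 only the second.

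Between the sexes, 2 of the 4 ligands passed in noncystic mice and 1 in Pkd1KO mice. Of all 15 tested ligands 3 passed in each of these genotypes, all lower in males, and 0 in Pkd1KO+ciliaKO mice, shares below those of all genes (27.5%, 27.2% and 14.6%). Wnt7b was 0.703 times as high in noncystic males as in noncystic females (-0.51 ± 0.13, adjusted p = 0.00609, 7 of 8 males below the female median), and the Pkd1KO mice gave -0.33 ± 0.12 (adjusted p = 0.053, 7 of 7 below). Wnt9b was lower in males among the noncystic mice (-0.63 ± 0.23, adjusted p = 0.0464, 6 of 8 below) and the Pkd1KO mice (-0.71 ± 0.20, adjusted p = 0.0167, 6 of 7 below). The noncystic call of Wnt9b was lost without the 6 doubted libraries (-0.51, adjusted p = 0.0677). Without these libraries Wnt7b also passed in Pkd1KO mice (-0.40, adjusted p = 0.0165) and in Pkd1KO+ciliaKO mice (-0.64, adjusted p = 0.00638). Axin2 then passed in all 3 genotypes, at -0.45 in noncystic (adjusted p = 0.0248), -0.48 in Pkd1KO (adjusted p = 0.00953) and -0.37 in Pkd1KO+ciliaKO mice (adjusted p = 0.0119). The 4 males among these libraries lay toward or among the females on the first principal component. Leaving them out therefore favours differences between the sexes by design. Of all 15828 genes, 5227, 4692 and 5111 passed in the 3 genotypes without the 6 libraries, against 4353, 4313 and 2303 with them.

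Lgr4 passed between the sexes in the Pkd1KO+ciliaKO mice, where it was lower in males (-0.30 ± 0.09, adjusted p = 0.0323, 8 of 9 males below the female median), and the noncystic mice gave the opposite sign (0.16 ± 0.08, adjusted p = 0.121). In all, 2 of 10 members passed between the sexes in noncystic mice, where 27.5% of all genes did, 1 of 10 in Pkd1KO mice (27.2%) and 1 of 10 in Pkd1KO+ciliaKO mice (14.6%). At least 1 genotype gave a call for 3 of 10 members (40.3% of all genes), and none of these passed in all 3 genotypes (8.66%). No member separated males from females without overlap within a genotype, where 5.93%, 6.94% and 2.69% of all genes did. The genotype effects themselves were not shown to differ between the sexes for any member. The interaction of sex and genotype gave 0 of 10 members in Pkd1KO against noncystic (0.0126% of all genes), 0 of 10 in Pkd1KO against Pkd1KO+ciliaKO (0.221%) and 0 of 10 in Pkd1KO+ciliaKO against noncystic (0.0316%), and 0, 1 and 1 members at an unadjusted p under 0.05. DESeq2 gave 0 members in each. The member nearest to a call was Lgr4 in Pkd1KO+ciliaKO against noncystic, where the difference was -0.25 in males and 0.20 in females (interaction -0.45 ± 0.13, unadjusted p = 0.00139, adjusted p = 0.369).

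**Figure D5:**
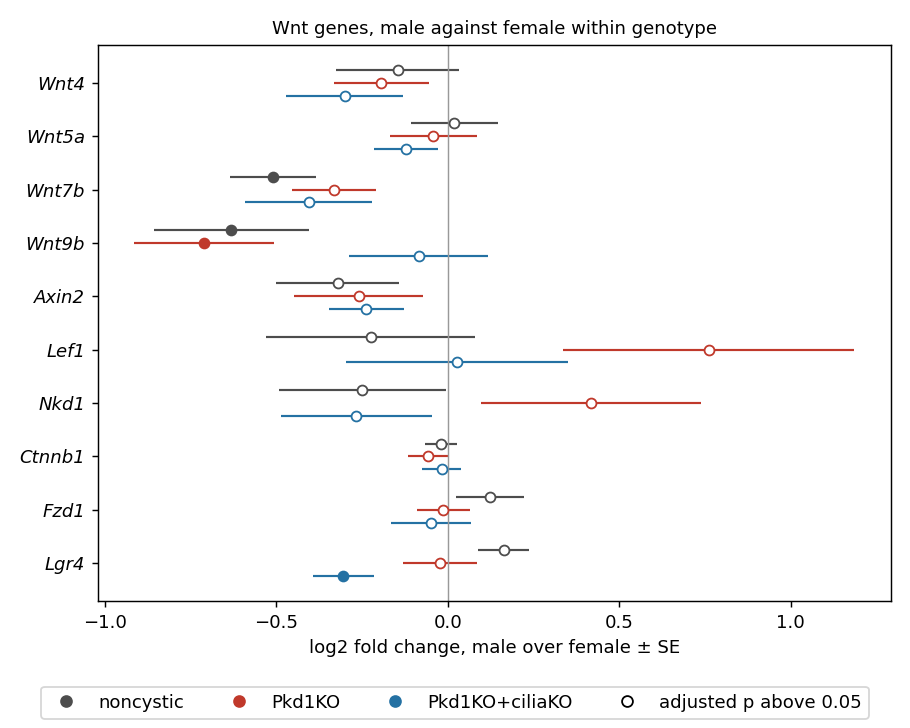
Log2 difference of males over females (± SE) of each member within noncystic, Pkd1KO and Pkd1KO+ciliaKO mice. Filled symbols mark an adjusted p of at most 0.05: Wnt7b and Wnt9b in noncystic, Wnt9b in Pkd1KO and Lgr4 in Pkd1KO+ciliaKO mice, each lower in males.

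The rest of the pathway was read from 9 lists that together named 106 genes, the members included, of which 96 passed the filter in both sexes. In males 10 of the 96 passed in Pkd1KO against noncystic (6 higher, 4 lower, 10.4%, against 6.3% of all genes). In Pkd1KO against Pkd1KO+ciliaKO males 4 passed (2 higher, 2 lower, 4.17%, against 3.77%). In Pkd1KO+ciliaKO against noncystic males 14 passed (8 higher, 6 lower, 14.6%, against 8.89%). In females 2 passed in Pkd1KO against noncystic (both higher, 2.08%, against 3.34% of all genes). In Pkd1KO against Pkd1KO+ciliaKO females 11 passed (6 higher, 5 lower, 11.5%, against 11.7%). In Pkd1KO+ciliaKO against noncystic females 3 passed (1 higher, 2 lower, 3.1%, against 2.54%). The median log2 difference of the 96 genes stayed between -0.08 and 0.10. The average of both sexes gave 19 (19.8%), 22 (22.9%) and 21 (21.9%) of the 96, near the shares of all genes above.

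Ligands outside the members moved in both directions. Of 15 tested ligands, members included, 3 were higher and 2 lower in Pkd1KO against noncystic males (33.3%, against 6.3% of all genes). In Pkd1KO against Pkd1KO+ciliaKO males 1 passed (6.67%, against 3.77%), and in Pkd1KO+ciliaKO against noncystic males 4 passed (26.7%, against 8.89%). The female comparisons, in the same order, gave 1, 2 and 0 (6.67%, 13.3% and 0%, against 3.34%, 11.7% and 2.54%). Wnt9a, a canonical ligand, was higher in Pkd1KO than in both other genotypes in both sexes. Its male values were 3.42 to 6.49 CPM in Pkd1KO, 1.77 to 3.31 in noncystic and 2.24 to 3.84 in Pkd1KO+ciliaKO mice, with a difference of 0.71 ± 0.16 (adjusted p = 0.011) from the noncystic and of 0.54 ± 0.13 (adjusted p = 0.0295) from the Pkd1KO+ciliaKO males, the latter lost without the 4 males that stood apart (0.49, adjusted p = 0.0696). Its female differences were 0.66 ± 0.15 (adjusted p = 0.0185) and 0.61 ± 0.14 (adjusted p = 0.0114), both lost under the replicate block. The Pkd1KO males did not overlap the noncystic males for Wnt9a, which no member achieved and 2.11% of all genes did.

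Wnt16 was higher than in noncystic males in both mutants, at 0.442 to 2.32 CPM in Pkd1KO (1.57 ± 0.33, adjusted p = 0.0081) and 0.577 to 1.02 CPM in Pkd1KO+ciliaKO (1.22 ± 0.16, adjusted p = 7.67e-05) against 0.223 to 0.396 CPM. Wnt6 was higher in Pkd1KO males (1.13 ± 0.27, adjusted p = 0.0196). Wnt11, a ligand of β-catenin-independent signaling, was lower in both male mutants than in noncystic males (-1.54 ± 0.33, adjusted p = 0.0096, and -1.09 ± 0.26, adjusted p = 0.0134), as was Wnt5b (-0.69 ± 0.18, adjusted p = 0.0318, and -0.83 ± 0.15, adjusted p = 0.00181). Against noncystic females, 0 ligands were called lower in either mutant. In females Wnt5b was higher in Pkd1KO than in Pkd1KO+ciliaKO (0.66 ± 0.15, adjusted p = 0.0104). Wnt6, Wnt11 and Wnt16 lay at or below 1 CPM in most mice. The call of Wnt5b in Pkd1KO males was lost without the 4 males that stood apart (adjusted p = 0.085) and held in 7 of 15 fits that left out 1 mouse.

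Receptors and transducers showed smaller differences. Lrp5 and Lrp6, the co-receptors of canonical signaling, were lower in both male mutants, at -0.29 ± 0.07 (adjusted p = 0.0268) and -0.25 ± 0.07 (adjusted p = 0.0406) in Pkd1KO and -0.32 ± 0.07 (adjusted p = 0.00878) and -0.22 ± 0.05 (adjusted p = 0.0108) in Pkd1KO+ciliaKO. Ryk, a receptor tyrosine kinase-like Wnt receptor, was higher in Pkd1KO males (0.24 ± 0.06, adjusted p = 0.0182), and Fzd3 was higher in Pkd1KO+ciliaKO males (0.51 ± 0.10, adjusted p = 0.00409). Ror2, a receptor of Wnt5a, was higher in Pkd1KO than in Pkd1KO+ciliaKO females (0.61 ± 0.14, adjusted p = 0.0111) and lower in Pkd1KO+ciliaKO than in noncystic females (-0.52 ± 0.12, adjusted p = 0.0402). Fzd6 was lower in Pkd1KO than in Pkd1KO+ciliaKO females (-0.31 ± 0.09, adjusted p = 0.0371), a call lost without the doubted females. Several of these calls rested on single mice. On leaving out 1 mouse, the calls in Pkd1KO against noncystic males held in 9 of 15 fits for Lrp5 and 3 of 15 for Lrp6, and the female calls of Ror2 against noncystic in 5 of 13 and of Fzd6 in 6 of 14.

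Dvl1, which relays the signal from Frizzled receptors, was higher in Pkd1KO+ciliaKO mice in each of its calls within a sex. Pkd1KO was below Pkd1KO+ciliaKO in males (-0.41 ± 0.07, adjusted p = 0.0051) and in females (-0.30 ± 0.08, adjusted p = 0.0183), and Pkd1KO+ciliaKO was above noncystic in males (0.44 ± 0.06, adjusted p = 0.000301). Invs (inversin), a ciliary protein linked to the choice between Wnt branches, was higher in Pkd1KO than in Pkd1KO+ciliaKO in males (0.25 ± 0.07, adjusted p = 0.0396) and females (0.32 ± 0.09, adjusted p = 0.0367). The female Invs call was lost without the doubted females (adjusted p = 0.0525). Apc, of the destruction complex, was higher (0.27 ± 0.07, adjusted p = 0.0495) and Ctnnbip1, an inhibitor of β-catenin, lower (-0.26 ± 0.06, adjusted p = 0.0439) in Pkd1KO+ciliaKO than in noncystic females. These calls held in 2 of 13 (Apc) and 4 of 13 (Ctnnbip1) fits that left out 1 mouse, and those of Invs in 7 of 16 in males and 7 of 14 in females.

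Secreted regulators differed between the mutants and from the noncystic mice. Sostdc1, a secreted Wnt and BMP antagonist, was lower in Pkd1KO than in Pkd1KO+ciliaKO in males (-0.59 ± 0.14, adjusted p = 0.0294) and females (-0.42 ± 0.11, adjusted p = 0.0207), and higher in Pkd1KO+ciliaKO than in noncystic males (0.60 ± 0.15, adjusted p = 0.0166). Dkk3 was higher in Pkd1KO females than in noncystic (0.80 ± 0.20, adjusted p = 0.0301) and Pkd1KO+ciliaKO females (0.65 ± 0.20, adjusted p = 0.0486), the latter lost without the doubted females (0.62, adjusted p = 0.0874). These 2 calls of Dkk3 held in 7 of 15 and 3 of 14 fits that left out 1 mouse, and that of Sostdc1 between the male mutants in 10 of 16. In Pkd1KO+ciliaKO against noncystic males, Rspo1, a ligand of Lgr4, was higher (1.36 ± 0.26, adjusted p = 0.00321) and Notum, which inactivates Wnt proteins, lower (-0.66 ± 0.18, adjusted p = 0.0252). Rspo1 was low in both groups, at 0.316 to 0.647 CPM in Pkd1KO+ciliaKO and 0.0812 to 0.278 CPM in noncystic males. Znrf3, the ligase that removes Frizzled receptors, was lower in Pkd1KO than in Pkd1KO+ciliaKO females (-0.28 ± 0.06, adjusted p = 0.0112).

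Of the 16 listed target genes, which include Axin2, Lef1 and Nkd1, 2 passed in Pkd1KO against noncystic males, both higher (12.5%, against 6.3% of all genes). Ccnd1, encoding cyclin D1, ranged from 207 to 315 CPM in Pkd1KO, from 192 to 274 in Pkd1KO+ciliaKO and from 113 to 178 in noncystic males, so that both mutant groups lay wholly above the noncystic males. Its difference from noncystic was 0.66 ± 0.11 (adjusted p = 0.00151) in Pkd1KO and 0.57 ± 0.09 (adjusted p = 0.00113) in Pkd1KO+ciliaKO. Of all genes, 2.11% and 1.06% separated without overlap in these comparisons. The study reported enrichment of cell cycle processes only in its male gene set, and the source of the Ccnd1 difference was not tested. Tcf7, a partner of β-catenin, was also higher in Pkd1KO males (1.1 ± 0.30, adjusted p = 0.0391), at a median of 1.69 and a highest value of 5.88 CPM. Without the 4 males that stood apart this difference was 0.71 (adjusted p = 0.0232), and it passed in 8 of 15 fits that left out 1 mouse. T cells also express Tcf7, and 5 T cell markers summed to 10.7 CPM in Pkd1KO male 4 against 1.92 to 2.98 in the other Pkd1KO males. Their part in the Tcf7 value was not tested. Targets also went down. In Pkd1KO against Pkd1KO+ciliaKO females Sp5 was higher (0.40 ± 0.10, adjusted p = 0.0186) and Znrf3, also a listed target, lower (-0.28 ± 0.06, adjusted p = 0.0112). These made up 12.5% of the list, against 11.7% of all genes. In Pkd1KO+ciliaKO against noncystic males 2 listed targets were higher and 1, Notum, was lower (18.8%, against 8.89% of all genes). In females 0 of the 16 passed in Pkd1KO against noncystic, where 3.34% of all genes did. In the average of both sexes 6 of the 96 genes had the CDCA pattern, a share near the 7.22% of all genes, with Wnt9a, Wnt10a, Ryk and Dkk3 higher and Lgr4 and Znrf3 lower in Pkd1KO than in both other genotypes. Without the 6 doubted libraries, Wnt10a missed the threshold in both comparisons (adjusted p = 0.101 and 0.122) and Znrf3 in Pkd1KO against noncystic (adjusted p = 0.105).

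Genes whose variation between mice was most like that of a member were found from log2 CPM after subtraction of the 6 group means. For Nkd1 these were Cdh11 (r = 0.95), Dact3 (0.924) and Fam114a1 (0.913), and for Wnt5a they were Loxl2 (0.82), Apba1 (0.794) and Cpt1c (0.785). Cdh11 is a mesenchymal cadherin and Loxl2 cross-links collagen. For Wnt7b they were Epn3 (0.909), Proser2 (0.848) and Muc1 (0.846), and for Wnt9b Chst8 (0.664), Celsr2 (0.628) and Elfn1 (0.612), the second of which is a planar cell polarity gene. Wnt4 was followed by Dusp9 (0.676), Apcdd1 (0.655), a Wnt inhibitor and target, and Nhlrc4 (0.653).

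Axin2 was followed by Ksr1 (0.81), Lepr (0.794) and Nfatc4 (0.775), and Lef1 by Rasgrp3 (0.807), Gngt2 (0.779) and Cyyr1 (0.765). Without the 6 doubted libraries (39 mice) Ksr1 fell to 0.669, Nfatc4 to 0.575 and Rasgrp3 to 0.638, whereas Cdh11 stayed at 0.946 with Nkd1 and Epn3 at 0.849 with Wnt7b. Ctnnb1 was followed by Dcaf7 (0.771) and Pfkp (0.767), Fzd1 by Prkab1 (0.671), Foxk1 (0.67) and Adnp2 (0.654), and Lgr4 by Xpo7 (0.795), Ap2a2 (0.771) and Plpbp (0.763). Among the members themselves Axin2 and Nkd1 gave 0.618 and Wnt5a and Nkd1 gave 0.606 over 45 mice, and Axin2 and Lef1 gave 0.476, which fell to 0.0283 over the 39 mice. Mice of all groups enter these values and share 1 normalization.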

How the data were processed

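TRAP RNASeq counts of 45 mice were used. The authors trimmed reads (KAPA RNA HyperPrep with RiboErase, paired 150 bp) using fastp 0.20.0, mapped them to GRCm38.p6 by STAR 2.7.9 and assigned fragments to genes by featureCounts 2.0.0. The deposited counts are unnormalized whole numbers per gene. The deposited TPM tables, 1 per sex, hold those protein-coding genes that reached 6 counts in 20% or more of the mice (15991 in males, 15968 in females), and these genes were tested. Symbols matched for 55141 of 55401 genes.

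Groups came from the sample labels, with each mouse as 1 replicate. Each pair of genotypes was fitted within a sex in edgeR 4.0.16 (R 4.3.3) with TMM, quasi-likelihood tests and Benjamini-Hochberg adjustment at 0.05. Sexes were compared within a genotype, and interactions and sex averages were fitted on all 45 mice. The SE is the log2 difference over the root of F. DESeq2 1.42.0, limma 3.58.1 (sample weights, or log2(TPM + 1)), other filters and scalings, the replicate block and leaving out mice were alternatives. Log2 CPM used a prior count of 2. The code was tested on simulated counts.

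The members, the 9 pathway lists and the marker lists were chosen with earlier results of these data known. Named genes are the members, Kif3a and Pkd1, list genes past the threshold between genotypes (at most 12 per comparison, those of smallest p) and the 3 genes most like each member, 1 of which is not reported here. List genes named in the average of both sexes or between the sexes were chosen after their values were seen.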

Additional observations from a re-analysis of the deposited data

Results flagged for a closer look

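Of 60 pairs of member and group, 8 held a mouse whose distance from the nearest other mouse was large relative to the range of its group (Dixon's 95% criterion). Chance marks about 1 in 20 groups. Pkd1KO male 4 accounted for 3 of the 8, with 12.7 CPM of Axin2, 1.15 CPM of Lef1 and 22.7 CPM of Nkd1, each the highest value of its group, beside the high stromal and endothelial markers of that library. Pkd1KO+ciliaKO female 1 was the highest of its group for Wnt7b (53.7 CPM) and for Lgr4 (336 CPM). Ctnnb1 reached 402 CPM in Pkd1KO male 3 and 393 CPM in Pkd1KO+ciliaKO male 8, and Lgr4 reached 274 CPM in Pkd1KO+ciliaKO male 3. No cause was tested for these values.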

How the results depend on the processing

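Of 2974 values of single genes under an alternative, 2735 kept their side of the threshold and 172 lost and 67 gained a call. No called value changed its direction, while 119 values called in neither fit changed sign. The number of called members depended on the method, and the cause was not tested. In Pkd1KO against noncystic males the count of 0 became 2 with DESeq2, with limma sample weights and without the 4 males that stood apart, and 1 with all 3 genotypes in 1 fit and with limma on TPM. Leaving out 1 mouse gave 0 to 2. The same alternatives, in that order, called 1640, 1475, 915, 1449 and 625 of 15991 genes, against 1008 in the main fit. In Pkd1KO against Pkd1KO+ciliaKO males 0 became 1 with DESeq2 and with limma sample weights, and leaving out 1 mouse gave 0 to 0. The number of all genes called went from 603 to 1234 and 1389 in these alternatives. In Pkd1KO+ciliaKO against noncystic males 1 became 3 with DESeq2 and without the 4 males, 2 with all 3 genotypes in 1 fit and with the replicate block, and 4 with limma sample weights, and leaving out 1 mouse gave 1 to 4. The number of all genes called went from 1422 to 2157, 2240, 1181, 764 and 2803 in the order of these alternatives. In females, Pkd1KO against noncystic went from 0 to 1 with the replicate block and without the doubted females (0 to 1 on leaving out 1 mouse). Here all genes called went from 533 to 294 and 558 of 15968. Pkd1KO against Pkd1KO+ciliaKO went from 1 to 2 with DESeq2 and without the doubted females, and to 0 with the replicate block (1 to 2). Here all genes called went from 1869 to 2504, 1661 and 612. Pkd1KO+ciliaKO against noncystic went from 0 to 1 with limma sample weights and without the doubted females, and to 2 with limma on TPM (0 to 1). Here all genes called went from 405 to 1357, 926 and 1000.

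Between the sexes, the replicate block took the counts of 2, 1 and 1 in noncystic, Pkd1KO and Pkd1KO+ciliaKO mice to 1, 0 and 0. It took those of all genes from 4353, 4313 and 2303 of 15828 to 3334, 3634 and 1804. In Pkd1KO mice DESeq2 gave 2, limma sample weights 3 and the fit without the 6 doubted libraries 3, and in Pkd1KO+ciliaKO mice the last 2 gave 5 and 3. All genes moved as well, to 4880, 5799 and 4692 in Pkd1KO mice and to 6584 and 5111 in Pkd1KO+ciliaKO mice. In the average of both sexes only Pkd1KO+ciliaKO against noncystic moved, from 3 to 6 with limma sample weights and without the 6 libraries. There all genes called went from 3048 to 4491 and 3856 of 15828. The number of members with the CDCA pattern did not move. The count of all genes in Pkd1KO+ciliaKO against noncystic females was unstable, falling from 405 to 8 without Pkd1KO+ciliaKO female 2 or 3 and rising to 746 without the library labelled noncystic female 5, as was that in males, which rose from 1422 to 2359 without noncystic male 3. The replicate numbers did not pair the mice: deviations of same-numbered mice correlated between -0.206 and 0.192 over 19 female pairs, and between -0.288 and 0.280 over 22 male pairs. Lef1 rested on the fewest fragments, 8 to 120 per mouse.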

Other observations

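Genes of the pathway lists differed between the sexes, as did 27.5%, 27.2% and 14.6% of all genes in noncystic, Pkd1KO and Pkd1KO+ciliaKO mice. Of the 96 tested list genes, 41 (42.7%) passed between males and females in at least 1 genotype and 10 (10.4%) passed in all 3 with the same direction, near the 40.3% and 8.66% of all genes. The 5 that were higher in males throughout were Frzb, a secreted Frizzled-related inhibitor (1.93 ± 0.19, 1.82 ± 0.16 and 1.23 ± 0.26 on the log2 scale in noncystic, Pkd1KO and Pkd1KO+ciliaKO mice), Notum (0.89 ± 0.16, 0.85 ± 0.15 and 0.71 ± 0.18), Sp5 (0.85 ± 0.13, 0.84 ± 0.13 and 0.88 ± 0.19), the planar cell polarity gene Vangl1 (0.61 ± 0.11, 0.74 ± 0.07 and 0.56 ± 0.14) and Ctnnbip1 (0.43 ± 0.09, 0.35 ± 0.09 and 0.54 ± 0.13). The 5 that were lower in males throughout were Ror2 (-1.10 ± 0.13, -1.19 ± 0.15 and -0.59 ± 0.11), Dkk3, Fzd3, Fzd4 and Porcn, the acyltransferase that Wnt proteins need for secretion (-0.42 ± 0.11, -0.44 ± 0.14 and -0.43 ± 0.13). No member was among the 10.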
